A study of Mus musculus with 2 samples.

Results

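Guanylate-binding proteins (GBP) and immunity-related GTPases (IRG) are 2 families of interferon-inducible GTPases. The genes described here are 9 members, 5 GBP (Gbp2, Gbp3, Gbp4, Gbp5 and Gbp7) and 4 IRG (Irgm1, Irgm2, Igtp, also called Irgm3, and Iigp1, also called Irga6). They were chosen by symbol for this account, and all 9 were among the 27998 genes of the deposited feature table. They were measured in live CD45-positive cells sorted from subcutaneous tumors of B16F10, a mouse melanoma line, by droplet single-cell RNA sequencing with 10x Genomics 3' v3 chemistry. Hosts were C57BL/6 mice, and all of them carried floxed alleles of Usp18, whose product strips ISG15 from proteins and damps signalling by the type I interferon receptor. The control hosts were Usp18f/f, and the other hosts were Usp18f/f LysM-Cre, in which Cre is driven by the Lyz2 locus, active in macrophages, monocytes and neutrophils. Tumors were taken at day 14, and the cells of 4 tumors per group were pooled and made into 1 library, here the control pool and the library labelled knockout. The labels give no sex or age of the mice, and with 1 library per group no test between groups was possible. All intervals below are 95% intervals that cover counting error only, not the spread between mice.

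GBP and IRG proteins are a cell-autonomous defence. They are made in response to interferons, above all interferon-gamma, and gather on membranes that enclose bacteria or parasites. IRGM-type members (Irgm1, Irgm2 and Igtp) sit on the cell's own membranes and keep effector members such as Iigp1 in their inactive form there. GBP attack vacuoles and cytosolic bacteria, and several of them expose bacterial material to inflammatory caspases. Interferon-gamma acts mainly through promoter elements called gamma-activated sites, whereas type I interferon acts mainly through interferon-stimulated response elements. IRF1, itself induced by interferon-gamma, binds the latter kind of element, so the 2 responses overlap.

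Gbp5, Gbp7, Gbp3 and Gbp2 lie in that order on the plus strand of chromosome 3 (GRCm38, GENCODE M21), at chr3:142493978-142522344 (Gbp5, ENSMUSG00000105504), chr3:142530342-142550149 (Gbp7, ENSMUSG00000040253), chr3:142560026-142573209 (Gbp3, ENSMUSG00000028268) and chr3:142620602-142638008 (Gbp2, ENSMUSG00000028270). Gbp4 lies on the minus strand at chr5:105115767-105139586 (ENSMUSG00000079363), and Irgm1 on the minus strand at chr11:48861968-48871683 (ENSMUSG00000046879). Igtp (chr11:58199556-58207591, ENSMUSG00000078853) and Irgm2 (chr11:58199618-58222782, ENSMUSG00000069874) share the plus strand and overlap in the annotation, so the split of UMIs between this pair is uncertain. The same holds for close paralogs among the GBP, because how reads common to several genes were assigned is not given in the sources used here.

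Promoters were read from RefSeq windows of GRCm38.p6, which hold 250 bases before and 50 bases after a start. The windows used here covered 7 of the 9 members with 8 starts (Gbp3 has 2), and Gbp4 and Iigp1 are named without one. The response-element motif, GAAA followed by any 2 bases and a further GAAA, was searched on both strands and was present in all 7 genes, in 7 of 8 windows. Among all 32851 windows of the table, 3.44% held it. The gamma-activated-site motif TTCNNNGAA, which reads the same on both strands, was present in 4 genes (Gbp5, Gbp7, Irgm2 and Igtp) against 8.30% of all windows, and both motifs stood together in 4 of 8 member windows against 0.454%. The 2 motifs can overlap in sequence, and a match is a description of letters, not a bound site. Upstream sequences of 5 members are shown as examples of how the motifs were arranged: the response-element motif on its own (Gbp2), as an overlapping pair (Irgm1), between a pair of gamma-activated-site motifs (Gbp5), and just downstream of one (Igtp and Irgm2). They run 5′ to 3′ on the gene's strand, up to the base before the start, with both motifs in capitals. A response-element match on the other strand reads TTTC, any 2 bases, TTTC, as in Gbp2 and Gbp5. The stretches are chr3:142620413-142620662 (Gbp2), chr3:142496684-142496933 (Gbp5), chr11:48871421-48871670 (Irgm1, minus strand), chr11:58199306-58199555 (Igtp) and chr11:58214727-58214976 (Irgm2).
Gbp2: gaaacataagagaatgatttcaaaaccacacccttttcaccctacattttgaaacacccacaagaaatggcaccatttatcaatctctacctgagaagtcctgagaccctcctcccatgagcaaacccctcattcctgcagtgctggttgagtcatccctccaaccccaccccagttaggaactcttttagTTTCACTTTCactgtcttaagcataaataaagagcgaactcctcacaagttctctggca
Gbp5: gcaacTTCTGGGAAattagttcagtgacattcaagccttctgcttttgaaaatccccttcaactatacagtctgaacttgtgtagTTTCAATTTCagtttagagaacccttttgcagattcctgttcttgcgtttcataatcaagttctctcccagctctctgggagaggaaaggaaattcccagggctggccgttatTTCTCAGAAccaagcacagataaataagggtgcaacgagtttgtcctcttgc
Irgm1: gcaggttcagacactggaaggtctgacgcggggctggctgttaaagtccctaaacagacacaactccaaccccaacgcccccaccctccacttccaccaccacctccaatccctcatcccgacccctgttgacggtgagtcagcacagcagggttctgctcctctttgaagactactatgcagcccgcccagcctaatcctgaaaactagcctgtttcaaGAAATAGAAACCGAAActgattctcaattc
Igtp: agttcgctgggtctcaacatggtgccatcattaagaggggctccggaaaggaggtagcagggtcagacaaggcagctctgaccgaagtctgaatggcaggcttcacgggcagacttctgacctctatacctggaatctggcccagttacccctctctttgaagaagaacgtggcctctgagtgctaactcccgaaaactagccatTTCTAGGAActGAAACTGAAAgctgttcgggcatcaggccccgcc
Irgm2: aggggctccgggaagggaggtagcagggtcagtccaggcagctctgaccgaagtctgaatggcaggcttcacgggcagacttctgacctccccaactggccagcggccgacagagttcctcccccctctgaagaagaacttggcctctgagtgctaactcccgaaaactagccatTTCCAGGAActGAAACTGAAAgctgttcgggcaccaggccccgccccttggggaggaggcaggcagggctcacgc

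**Figure D1:**
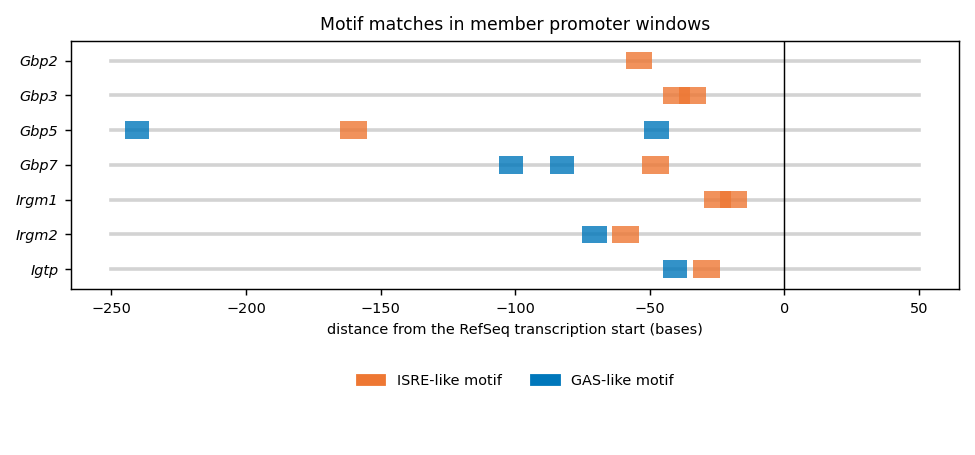
Motif matches in the promoter windows of 7 members (Gbp3 by its upstream start), with distance from the RefSeq start in bases on the x axis. Orange bars mark the response-element motif on either strand, blue bars mark TTCNNNGAA, and the grey lines span each window from 250 bases before to 50 bases after the start. All matches lie upstream of the start, and in 6 of the 7 genes the response-element motif begins within the last 64 bases before it.

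The response-element motif began 59 bases before the start in Gbp2, 45 and 39 in Gbp3, 53 in Gbp7, 165 in Gbp5, 30 and 24 in Irgm1, 34 in Igtp and 64 in Irgm2. In Igtp and Irgm2 the gamma-activated-site motif began 45 and 75 bases before the start, at the same spacing to the response-element motif. Among 16 genes of a type I interferon list with a window, 9 held the response-element motif and 2 the gamma-activated-site motif. Of 11 genes of an interferon-gamma list with a window, 1 held the former and 4 the latter.

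There were 7754 barcodes with 43412346 UMIs (unique molecules counted) for the control pool, and 6063 with 48167632 UMIs for the other. After filtering, 6656 and 5451 cells were kept, of which 6078 (91.3%) and 4855 (89.1%) were assigned to a class by counting detected markers. The classes are named by those markers, so each name means "like". Of the 10933 assigned cells, 96.7% had the same class as their expression cluster. Each cluster was named by the most common class among its cells, and the markers were not kept out of clustering, so this likeness is partly built in. There were 8 barcode sequences that occurred in both libraries. Usp18 went against its label: in mononuclear phagocytes it stood at 17.8 CPM (the UMIs of a gene scaled to 1000000 UMIs of the class) in the control pool and 90.8 in the other, 5.10-fold higher (4.47 to 5.84), so the second library is named here by its label alone. The 3' counts do not show whether the transcripts hold the floxed exons. Lyz2, the locus of Cre, went with the label (9217 and 17.8 CPM). Both libraries mixed cells with Xist, the transcript of the inactive X chromosome, and cells with Y-linked transcripts, in different proportions. Among mononuclear phagocytes with either kind of UMI and not both, Xist cells made up 33.4% in the control pool and 83.5% in the library labelled knockout, so sex and label cannot be told apart in whole-library values.

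In control tumors the summed level of the 9 members differed widely between classes. It was highest in T cells that carry Foxp3, the regulatory T cell factor, at 853 CPM (783 to 927), and in Cd4 T cells at 779 CPM (710 to 852). T cells as a whole and NK cells followed at 591 CPM (569 to 613) and 582 CPM (520 to 650), intervals that overlap. Cd8 T cells and migratory dendritic cells (DC) both stood at 459 CPM, and monocytes stood at 401 CPM (383 to 420). Macrophages stood at 317 CPM (305 to 330) and cDC2, the conventional DC that take up antigen for Cd4 T cells, at 310 CPM (286 to 336), again overlapping. B cells (211 CPM) and plasmacytoid DC (207 CPM) followed without differing beyond counting error, then cDC1 at 123 CPM (106 to 141) and melanoma cells at 47.0 CPM (42.4 to 52.0). In the library labelled knockout, monocytes stood at 896 CPM (873 to 919), between Cd4 T cells at 976 CPM and T cells as a whole at 705 CPM. Melanoma cells were again lowest at 73.9 CPM, NK cells were at 406 CPM and B cells at 253 CPM.

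The members did not share one pattern across classes. Gbp2 and Gbp5 both act against bacteria that reach the cytosol. Gbp2 stood at 179 CPM in control migratory DC and 159 CPM in control monocytes, against 48.5 CPM in T cells and 13.4 CPM in B cells. Gbp5, also known for promoting inflammasome assembly, was highest in migratory DC at 125 and 162 CPM in the control pool and the library labelled knockout, with control levels of 51.6 CPM in NK cells and 23.7 CPM in monocytes. Gbp4 stood at 123 CPM in control T cells and 118 CPM in NK cells. It stood at 67.2 CPM in plasmacytoid DC, 63.9 CPM in migratory DC and 49.5 CPM in B cells, and at 15.4 CPM in monocytes and 3.70 CPM in cDC1. Gbp7 was highest in control NK cells at 240 CPM and in Foxp3 T cells at 226 CPM, while migratory DC held 11.6 CPM. Among the IRG, Igtp stood at 136 CPM in control Cd4 T cells and 134 CPM in Foxp3 T cells, and at 28.3 CPM in monocytes. Irgm1, a regulator linked to autophagy and lysosomes, had control levels from 11.6 CPM in migratory DC to 60.4 CPM in Cd4 T cells. Iigp1, the effector that coats parasite vacuoles, ran in control cells from 90.8 CPM in Foxp3 T cells and 41.5 CPM in plasmacytoid DC down to 5.27 CPM in monocytes and 1.34 CPM in B cells. The value in B cells rests on 3 UMIs.

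**Figure D2:**
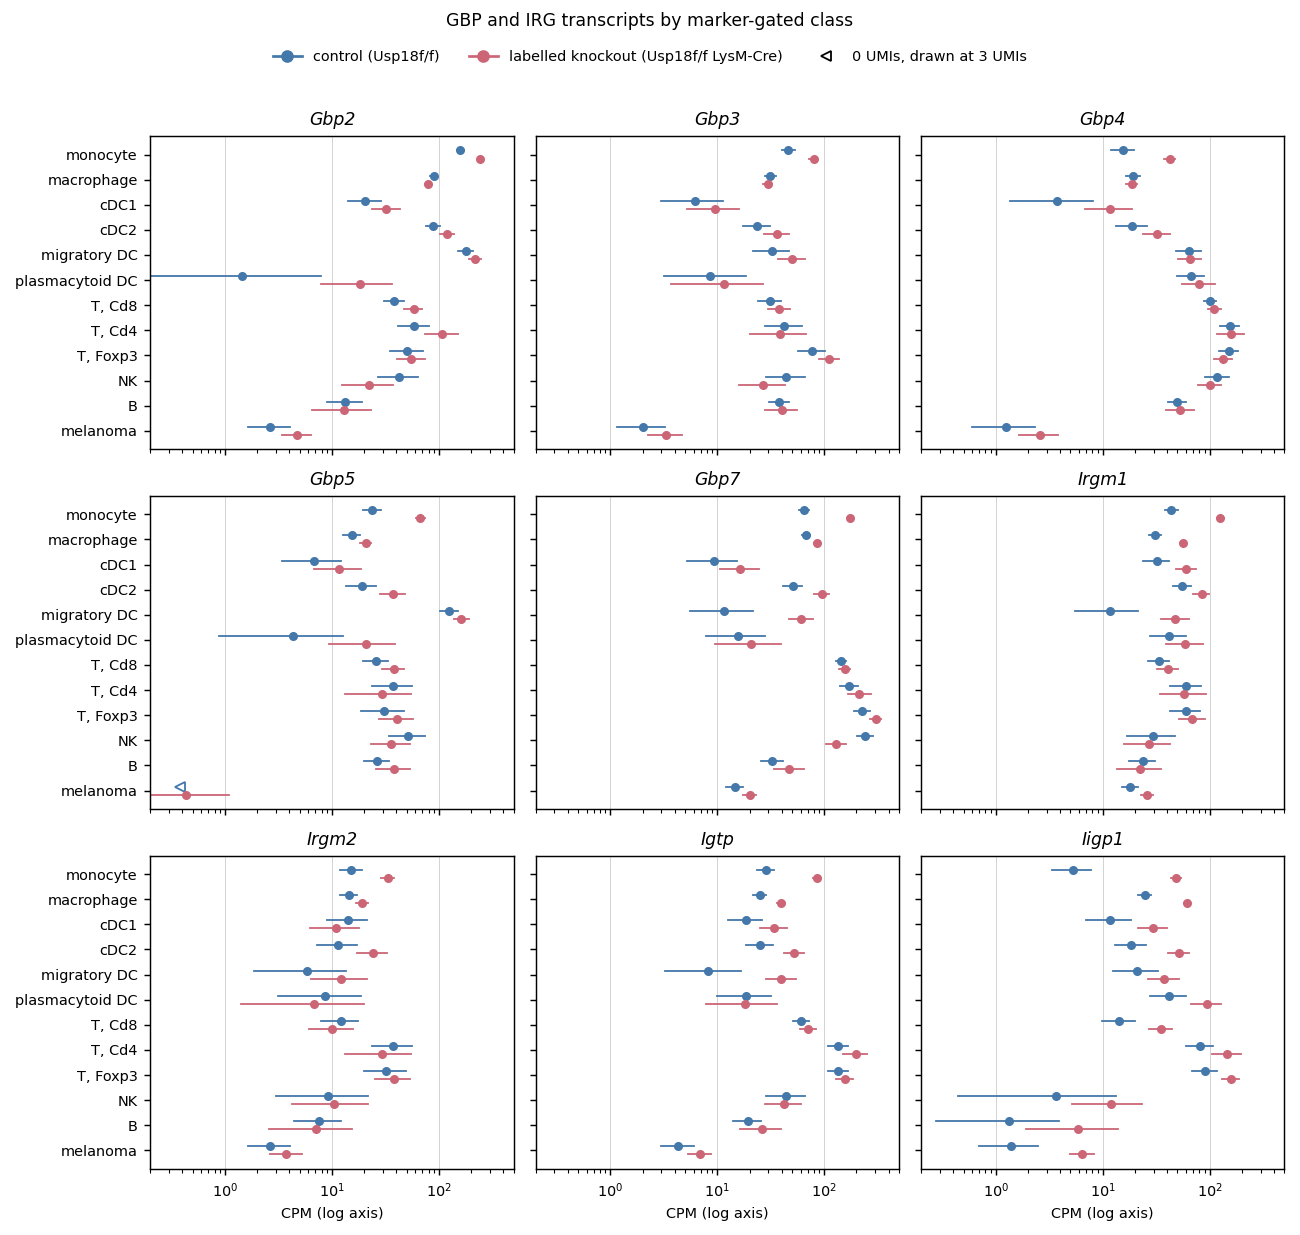
Level of each member in 12 marker-defined classes, in CPM on a log axis from 0.2 CPM. Blue points are the control pool, red points the library labelled knockout, lines the exact Poisson 95% intervals (clipped at 0.2 CPM), and an open triangle marks 0 UMIs at the 3-UMI floor. Red lies to the right of blue for all 9 members in monocytes, while in NK cells red lies to the left for all 5 GBP.

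In mononuclear phagocytes, the class most directly aimed at by LysM-Cre, all 9 members had a log2 ratio above 0, which is a higher level in the library labelled knockout, against 44.3% of the 11808 genes tested. Their sum was 339 CPM (330 to 349) in the control pool and 590 CPM (579 to 600) in the other, 1.74-fold higher (1.68 to 1.80). The 4 IRG stood at 90.9 and 222 CPM, 2.44-fold higher (2.29 to 2.60), and the 5 GBP at 248 and 368 CPM, 1.48-fold higher (1.42 to 1.54). Of the 9 members, 3 passed the fold used here for a call, a log2 ratio of (CPM + 5) of at least 1: Irgm1, Igtp and Iigp1, all IRG. Over all genes tested in this class, 0.932% did so in that direction, and 0.102% were called lower. T cell markers moved alongside, at 20.5 CPM in control mononuclear phagocytes and 51.9 CPM in the library labelled knockout, against 3462 and 3387 CPM in T cells themselves. Mononuclear phagocytes without any T cell marker UMI gave a nearly equal value: the log2 ratio of the sum was 0.76, against 0.79 over all of them.

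Iigp1, Irgm1 and Igtp had the highest ratios of the 9. Iigp1 stood at 16.8 CPM (14.7 to 19.1) in control mononuclear phagocytes and 59.3 CPM (56.1 to 62.6) in the library labelled knockout, 3.53-fold higher (3.07 to 4.07). Irgm1 stood at 34.5 and 81.7 CPM, 2.37-fold higher (2.14 to 2.63). Igtp, an IRGM-type regulator found on the endoplasmic reticulum and lipid droplets, stood at 25.1 and 55.8 CPM, 2.23-fold higher (1.97 to 2.51). Its neighbour Irgm2, which acts at the Golgi, stood at 14.5 and 24.9 CPM, 1.71-fold higher (1.45 to 2.02). The intervals of the 4 genes do not overlap between the libraries.

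The GBP ranged from 1.24-fold to 2.13-fold, with Gbp5 and Gbp7 above Irgm2. Gbp5 stood at 17.6 and 37.4 CPM, 2.13-fold higher (1.84 to 2.46), just short of a call on the scale with 5 CPM added (log2 ratio 0.91). Gbp7, which helps assemble the phagocyte oxidase, stood at 65.4 and 117 CPM, 1.79-fold higher (1.65 to 1.93). Gbp4 stood at 17.6 and 27.7 CPM, with a log2 ratio of 0.54. Gbp3, found on parasite vacuoles, stood at 36.0 and 47.2 CPM, with a log2 ratio of 0.35. Gbp2 had the most UMIs of the 9 and the smallest ratio, with 112 CPM (106 to 118) and 139 CPM (134 to 144), 1.24-fold higher (1.17 to 1.32). Left out of the sum, it changed the log2 ratio of the rest to 0.97.

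Over all cells of each kind, monocytes had a higher ratio than macrophages within that class. In monocytes, which carried Ccr2 and Ly6c2 among their markers, the sum was 401 CPM in the control pool and 896 CPM in the other, 2.23-fold higher (2.12 to 2.36). Calls were reached by 6 of 9 members there (Gbp4, Gbp5, Gbp7, Irgm1, Igtp and Iigp1), against 2.09% of genes tested. Macrophages, which carried C1q and Apoe, stood at 317 and 410 CPM, 1.29-fold higher (1.23 to 1.35), and 1 of 9 members (Iigp1) was called, against 0.56% of genes. The intervals of these folds do not overlap, but the difference between them was not tested across animals. The shares of Xist cells moved with it, at 34.6% and 91.8% of sexed monocytes and 30.8% and 72.9% of sexed macrophages. Among Xist cells alone the folds were 3.26 (2.88 to 3.70) in macrophages and 2.74 (2.46 to 3.06) in monocytes, with intervals that overlap. Among Y-linked cells the ratios were 0.649 (0.591 to 0.711) in macrophages and 1.10 (0.938 to 1.28) in monocytes.

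All 9 members had a log2 ratio above 0 in monocytes, against 43.2% of genes. The IRG together stood at 92.5 and 293 CPM, 3.17-fold higher (2.85 to 3.53), and the GBP at 308 and 603 CPM, 1.96-fold higher (1.84 to 2.08). Iigp1 had the highest ratio. It stood at 5.27 CPM (3.38 to 7.84) and 48.2 CPM (43.1 to 53.8), 9.15-fold higher (6.04 to 14.5), from a control value of 24 UMIs of which 1 cell held 41.7%. Igtp stood at 28.3 and 85.4 CPM, 3.01-fold higher, Irgm1 at 43.7 and 126 CPM, 2.89-fold higher, and Irgm2 at 15.2 and 33.2 CPM, 2.19-fold higher. Gbp5, Gbp4 and Gbp7 were close to these at 2.82, 2.77 and 2.67-fold, and Gbp7 reached 172 CPM from 64.6. Gbp3 was 1.72-fold higher and Gbp2 1.53-fold higher, with 159 and 242 CPM.

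Over all macrophages the 2 families parted, but not among those with Xist, where the GBP were 3.11-fold higher (2.66 to 3.66) and the IRG 3.49-fold higher (2.87 to 4.30). Over all macrophages the summed GBP stood at 223 CPM (213 to 233) and 234 CPM (225 to 242), a ratio of 1.05 whose interval includes 1 (0.991 to 1.11). The summed IRG stood at 94.8 and 176 CPM, 1.86-fold higher (1.72 to 2.02). Gbp2 was lower in the library labelled knockout at 79.3 CPM against 89.3, a ratio of 0.888 (0.808 to 0.977). For Gbp3 (31.4 and 29.6 CPM) and Gbp4 (19.3 and 18.6 CPM) the intervals of the ratio included 1. Gbp7 (67.3 and 85.3 CPM) and Gbp5 (15.3 and 20.8 CPM) were higher by 1.27-fold and 1.35-fold. Iigp1 stood at 24.9 and 61.6 CPM, 2.48-fold higher (2.13 to 2.90), and Irgm1 at 30.8 and 56.2 CPM, 1.83-fold higher (1.58 to 2.11).

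The type I list gives the scale of the response in the same cells. It holds 19 genes measured here, such as Rsad2, Isg15, Ifit1 and Mx1, classic antiviral genes. All 19 were at least 2-fold higher in mononuclear phagocytes, from a log2 ratio of 1.01 (Oas2) to 3.63 (Rsad2, with 42.0 and 577 CPM), with a median of 2.34. The median over the 9 members was 0.79, which is 1.55 lower on the log2 scale, and that over all genes was -0.03. The 2 lists share no gene. The earlier results on these data already showed this list's direction, so it frames the members' values and is not separate evidence.

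The interferon-gamma list, 15 genes with 13 tested, stood nearer to the members with a median of 0.52 in mononuclear phagocytes, and 2 of 13 were called (Socs1 and Il18bp). Its genes went apart. Socs1, a feedback inhibitor of JAK kinases, stood at 10.9 and 30.5 CPM, and Irf1, a transcription factor that drives GBP genes, at 42.5 and 63.5 CPM. Cxcl9, a chemokine that depends strongly on interferon-gamma, stood at 136 and 131 CPM, a ratio of 0.965 (0.910 to 1.02), and Ciita, the master regulator of MHC class II, at 37.8 and 22.5 CPM. The 6 MHC class II genes tested were all below 0, with a median log2 ratio of -0.56. The receptor subunit Ifngr1 stood at 218 and 139 CPM, and Ifngr2 at 122 CPM in both libraries.

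In each DC class the members also lay between the type I list and all genes. The sum was 1.76-fold higher in cDC1, the cross-presenting DC (123 and 216 CPM; 1.47 to 2.11), and 1.72-fold higher in cDC2 (310 and 532 CPM; 1.55 to 1.91). It was 1.51-fold higher in migratory DC (459 and 694 CPM; 1.34 to 1.72) and 1.59-fold higher in plasmacytoid DC (207 and 329 CPM; 1.25 to 2.01). Iigp1 was the 1 member called in cDC1 (of 9 tested; 0.941% of genes), in cDC2 (of 9; 1.01%) and in plasmacytoid DC (of 5; 1.63%). In the library labelled knockout a single cell held 32.5% of the Iigp1 UMIs of cDC2, and another held 30.2% of those of cDC1. In migratory DC 3 of 8 tested members were called, against 3.99% of genes: Gbp7 (11.6 and 61.2 CPM, 5.27-fold), Igtp (8.13 and 39.8 CPM, 4.89-fold) and Irgm1 (11.6 and 47.9 CPM, 4.13-fold). These 3 had 7 to 10 UMIs each in the control pool. The members that were already high in migratory DC moved less, with Gbp2 at 179 and 218 CPM and Gbp5 at 125 and 162 CPM. Member medians were 0.59, 0.81, 0.64 and 0.30 in cDC1, cDC2, migratory DC and plasmacytoid DC, and type I medians were 1.86, 1.68, 1.79 and 0.82.

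T cells had more GBP and IRG RNA per UMI than phagocytes in the control pool, and it differed little between the libraries. The sum stood at 591 and 705 CPM, 1.19-fold higher (1.13 to 1.26), and all 9 members were above 0, against 42.1% of genes, but 0 of 9 were called, against 1.89%. Iigp1 was the highest at 37.8 and 68.5 CPM, 1.81-fold (1.49 to 2.21), followed by Gbp3 at 38.0 and 50.3 CPM. Gbp4, the member with the smallest ratio, stood at 123 and 128 CPM. In Cd8 T cells Iigp1 alone was called (14.3 and 35.0 CPM; 1.99% of genes). Cd4 and Foxp3 T cells had 0 of 9 called (2.13% and 4.31% of genes), with Iigp1 at 81.6 and 145 CPM and at 90.8 and 157 CPM. The type I list had a median of 1.04 in T cells beside the members' 0.21. Mononuclear phagocyte markers moved with the T cell values, at 27.0 CPM in the control pool and 128 CPM in the other, as did the 6 MHC class II genes (median 2.30). They were detected in 6.14% and 17.1% of T cells, and without those cells the log2 ratio of the summed members was 0.27 against 0.25 for all T cells. In Foxp3 T cells it was 0.61 without them and 0.32 with them.

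NK cells went the other way. The sum stood at 582 CPM (520 to 650) in the control pool and 406 CPM (359 to 457) in the other, a ratio of 0.698 (0.591 to 0.823). All 7 members tested were below 0, where 39.8% of genes were above it, and 0 were called higher (2.33% of genes) or lower (3.33%). Over these 7 members the median was -0.47 against -0.13 for all genes. The difference lay in the GBP, at 496 and 315 CPM (ratio 0.636; 0.528 to 0.764), and above all in Gbp7 at 240 and 130 CPM (ratio 0.542; 0.409 to 0.717). The IRG stood at 86.6 and 91.1 CPM, with an interval of 0.707 to 1.57. Irf1 stood at 157 and 98.6 CPM in the same cells, and Ifng, which NK cells make, at 94.0 and 112 CPM. Without NK cells that held mononuclear phagocyte markers the log2 ratio of the sum was -0.63, against -0.51 for all.

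In B cells and melanoma cells no member was called. In B cells the sum stood at 211 and 253 CPM, 1.20-fold higher (1.01 to 1.41), with 0 of 8 members called (0.935% of genes). The type I list had a median of 1.09 in B cells beside the members' 0.08. In melanoma cells the sum stood at 47.0 and 73.9 CPM, 1.57-fold higher (1.38 to 1.79), with 0 of 8 called (0.0436% of genes). All 8 tested members were above 0 there, against 44.3% of genes, and the members' median of 0.35 was above that of the type I list, 0.19. The 2 sets of melanoma cells were unlike in depth, with medians of 50505 and 3771 UMIs, and 1 control cell held 26.3% of the member UMIs. Gbp5 had 0 UMIs in control melanoma cells and 4 in the other library, at or near the floor of 3 UMIs.

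**Figure D3:**
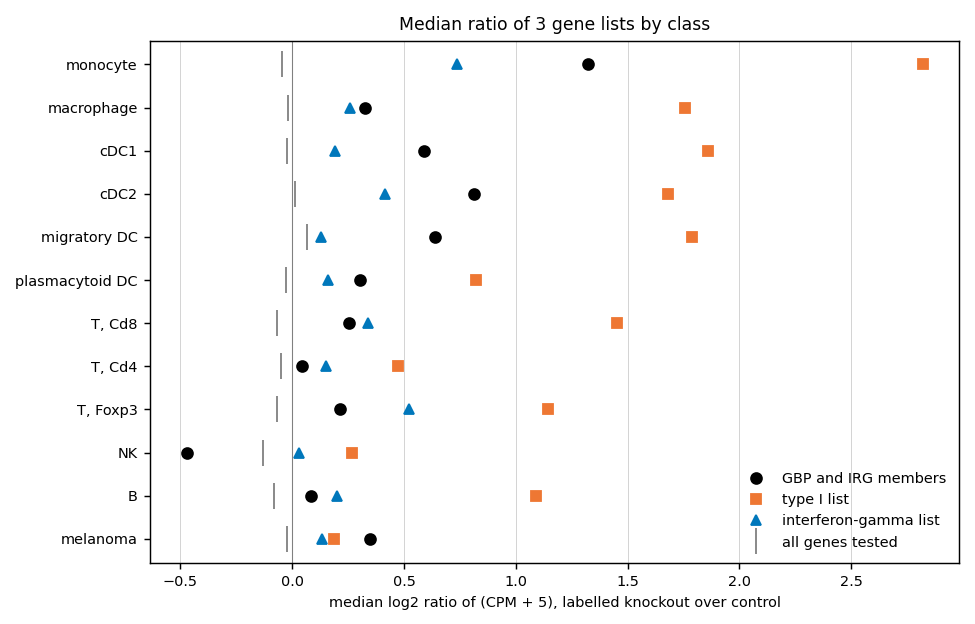
Median log2 ratio of (CPM + 5), library labelled knockout over control, for the members (black circles), the type I list (orange squares), the interferon-gamma list (blue triangles) and all genes tested (grey ticks), in 12 classes. The members lie left of the type I list in every class drawn except melanoma, and in NK cells they lie at -0.47, left of all genes.

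Among mononuclear phagocytes as a whole, the 2 kinds of cell told by Xist and Y-linked transcripts gave opposite directions for the GBP. In mononuclear phagocytes with Xist (423 control cells and 1660 in the library labelled knockout) the 9 members summed to 211 and 704 CPM, 3.33-fold higher (3.08 to 3.61), and 8 of 9 were called, against 1.35% of genes. In those with Y-linked UMIs (842 and 329 cells) they summed to 334 and 237 CPM, a ratio of 0.710 (0.657 to 0.767). There 0 members were called higher (0.81% of genes) and 2, Gbp2 and Gbp4, were called lower (1.31%). The families differed here. In Y-linked cells the GBP stood at 249 and 122 CPM, a ratio of 0.488 (0.440 to 0.541), while the IRG stood at 85.0 and 116 CPM, 1.36-fold higher (1.20 to 1.54). In Xist cells both were higher, by 3.26-fold for the GBP (139 and 452 CPM) and 3.47-fold for the IRG (72.5 and 252 CPM).

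Gbp2 and Gbp4 went furthest apart between the 2 kinds of cell. Gbp2 stood at 48.0 CPM in control Xist cells and 174 CPM in those of the library labelled knockout, 3.62-fold higher (3.07 to 4.30). In Y-linked cells it stood at 108 and 43.2 CPM, a ratio of 0.398 (0.334 to 0.472). Gbp7 stood at 38.8 and 139 CPM in Xist cells and at 69.5 and 44.8 CPM in Y-linked cells, and Gbp4 at 11.4 and 36.2 CPM and at 18.7 and 4.83 CPM. For Gbp4 the control Xist value rests on 36 UMIs, of which 1 cell held 30.6%. Iigp1 and Irgm1 were higher in the library labelled knockout in both kinds of cell. Iigp1 stood at 4.13 and 64.7 CPM in Xist cells and at 16.5 and 34.9 CPM in Y-linked cells, where in the library labelled knockout 1 cell held 32.3% of the UMIs. Its control Xist value rests on 13 UMIs in 8 cells, 1 of which held 23.1%. Irgm1 stood at 38.1 and 93.4 CPM in Xist cells and at 28.7 and 42.7 CPM in Y-linked cells. For Igtp and Irgm2 the intervals of the ratio in Y-linked cells included 1, at ratios of 0.912 and 1.03, beside 3.42 and 2.56 in Xist cells.

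In macrophages the reversal was as wide. The sum stood at 150 and 489 CPM with Xist, with 8 of 9 members called (1.17% of genes), and at 314 and 204 CPM with Y-linked UMIs, with Gbp2 and Gbp4 called lower (1.27%). Some control Xist macrophage values rest on few UMIs. Gbp2 had 40, of which 1 cell held 32.5%, Gbp4 had 15, of which 1 cell held 73.3%, and Iigp1 had 11. Monocytes stood at 351 and 961 CPM with Xist, with 7 of 9 called (2.80%), and at 400 and 438 CPM with Y-linked UMIs, a ratio of 1.10 whose interval includes 1 (0.938 to 1.28). In the Y-linked macrophages the GBP stood at 225 and 94.0 CPM and the IRG at 89.3 and 110 CPM. For the GBP of Y-linked monocytes the ratio was 0.889, an interval that includes 1 (0.734 to 1.07), with Gbp5 and Gbp7 above 1. So the opposite direction of the GBP was seen in macrophages and not clearly in monocytes. Y-linked cells were 425 macrophages and 344 monocytes in the control pool, and 237 and 78 in the other. In the Y-linked monocytes 1 of 8 tested members was called higher, Irgm1 (2.27%). The 2 kinds of cell differed within each library as well. In the control pool Xist mononuclear phagocytes held 0.632 times the member level of Y-linked ones, and in the library labelled knockout 2.97 times.

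Outside the mononuclear phagocytes the split differed by class, and many groups were small. Y-linked DC, NK and B cells of the library labelled knockout numbered 11 to 35 per class, and control DC and NK cells with Xist 14 to 42. In migratory DC the sum stood at 495 and 720 CPM with Xist, 1.46-fold higher (1.10 to 1.97), and at 524 and 253 CPM with Y-linked UMIs, a ratio of 0.483 (0.328 to 0.690). In NK cells it was lower in both kinds of cell, with ratios of 0.696 (0.523 to 0.939) and 0.382 (0.187 to 0.699), the latter from 11 UMIs in the library labelled knockout. T cells stood at 634 and 721 CPM with Xist and at 524 and 572 CPM with Y-linked UMIs, ratios of 1.14 (1.04 to 1.24) and 1.09 (0.930 to 1.27) whose intervals overlap. B cells had ratios of 1.00 (0.795 to 1.27) with Xist and 1.75 (1.12 to 2.65) with Y-linked UMIs. In cDC1 the ratios were 3.14 (1.84 to 5.83) and 1.25 (0.896 to 1.72). In cDC2 the GBP had a ratio of 0.896 with Xist, whose interval includes 1 (0.718 to 1.13), from 33 control cells of which 1 held 35.1% of the UMIs. With Y-linked UMIs the ratio was 1.46 (1.02 to 2.05), from 41 UMIs in 20 cells of the library labelled knockout.

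Other genes moved with this split. The type I list was higher in both kinds of mononuclear phagocyte, with medians of 2.21 (Xist) and 1.04 (Y-linked) and 19 of 19 genes above 0 in each. Of the interferon-gamma genes, Cxcl9 stood at 90.9 and 157 CPM with Xist and at 136 and 47.8 CPM with Y-linked UMIs, where in the library labelled knockout 1 cell held 58.4% of its UMIs. Xist monocytes went the other way for Cxcl9, at 223 and 118 CPM. Control Xist values of Cxcl9 rest on few cells. It was found in 15 mononuclear phagocytes, 1 of which held 30.8% of the UMIs, and in 11 monocytes, 1 of which held 37.9%. Irf1 stood at 34.3 and 73.3 CPM, and at 42.3 and 38.4 CPM. The MHC class II median was 0.27 with Xist and -2.59 with Y-linked UMIs. Ifng, the gene of interferon-gamma itself, stood in Cd8 T cells at 158 and 356 CPM with Xist, 2.25-fold higher (1.74 to 2.95), and at 165 and 147 CPM with Y-linked UMIs, from 22 UMIs in 34 cells of the library labelled knockout (ratio 0.887; 0.544 to 1.38). A single cell held 25.4% and 11.8% of the Ifng UMIs of Xist Cd8 T cells in the control pool and the library labelled knockout. In Y-linked Cd8 T cells 1 cell held 43.2% and 54.5%, a clumping that the intervals do not cover. Over all Cd8 T cells Ifng stood at 166 and 303 CPM. The part of these genes in the members' values was not tested, and tumors, mice and sex cannot be told apart within a pool.

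**Figure D4:**
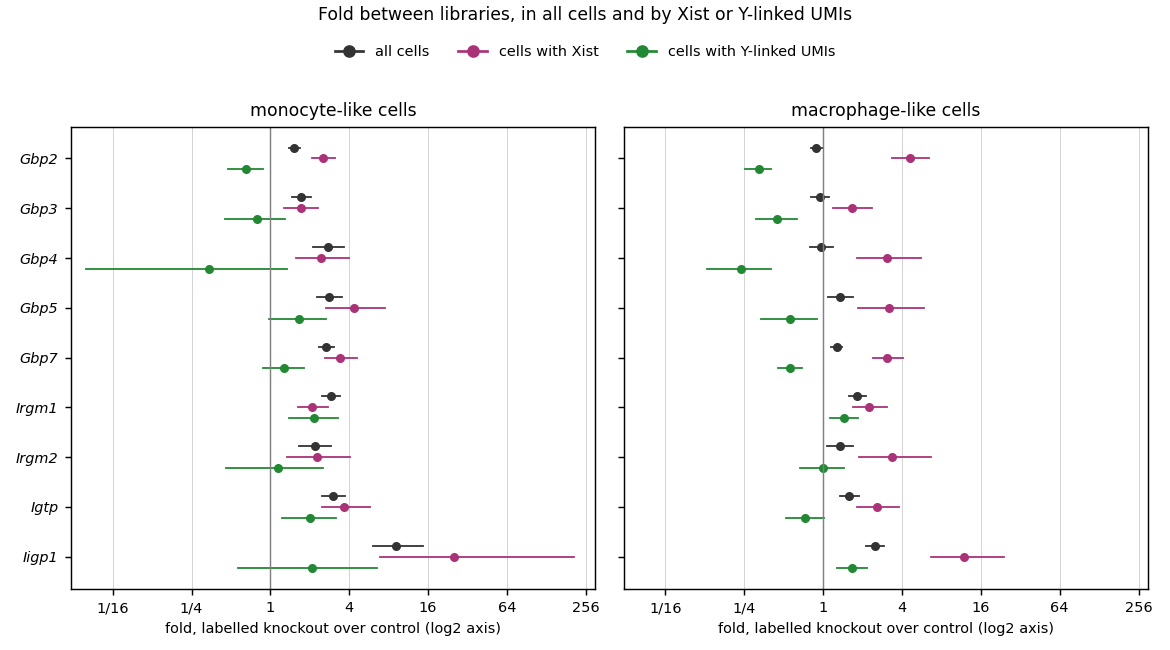
Fold between the libraries (labelled knockout over control, log2 axis) for each member in monocytes and macrophages, in all cells (black), cells with Xist (purple) and cells with Y-linked UMIs (green), with exact 95% counting intervals. In macrophages the green points lie below 1 for all 5 GBP and the purple points lie above 1 for all 9 members.

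Cell by cell, more mononuclear phagocytes held member transcripts in the library labelled knockout. With every cell thinned to 1000 UMIs, 17.3% of control cells (15.5 to 19.1) and 33.6% (31.7 to 35.6) of the others held at least 1 member UMI. At least 3 were held by 3.22% (2.44 to 4.17) and 8.43% (7.33 to 9.63), a difference of 5.20 percentage points (3.80 to 6.61). Shallower cells left out numbered 15 and 56, and without thinning the shares with at least 3 were 21.6% and 43.0%. Monocytes stood at 17.0% and 40.7% for at least 1 UMI and macrophages at 18.6% and 25.6%. Melanoma cells, thinned alike and lowest in level, stood at 5.30% and 4.86%, with 110 of 357 left out in the library labelled knockout. T cells, at 41.3% and 42.7%, were above all of these in the control pool. UMIs of 2 or more different members were found together in 4.49% and 13.7% of thinned mononuclear phagocytes.

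Over all mononuclear phagocytes, member UMIs were more frequent in cells with more type I UMIs. Among mononuclear phagocytes thinned to 1000 UMIs, those with 0 type I UMIs held 0.224 member UMIs per cell in the control pool (0.199 to 0.251) and 0.281 in the other (0.246 to 0.319). With 1 to 2 type I UMIs the values were 0.538 and 0.536, and with 3 to 5 they were 0.797 and 0.776, differences within counting error. With 6 or more they were 1.40 (1.04 to 1.85) and 1.93 (1.79 to 2.06). The control bins of 3 to 5 and of 6 or more held 59 and 35 cells, and the intervals do not cover the spread between cells. The shares of cells in each bin differed more. Cells with 0 type I UMIs made up 74.4% of control cells and 36.3% of the others, and cells with 6 or more made up 2.01% and 17.9%.

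This likeness within bins did not hold for each kind of cell. Monocytes with 0 type I UMIs held 0.254 member UMIs per cell in the control pool (0.214 to 0.299) and 0.476 in the other (0.402 to 0.559), whereas macrophages held 0.227 and 0.167, with intervals that overlap. With 3 to 5 type I UMIs, macrophages held 1.05 (0.750 to 1.44) and 0.549 (0.421 to 0.703), and monocytes 0.368 (0.148 to 0.759, from 19 cells) and 0.889 (0.760 to 1.03). Among cells with 0 type I UMIs, Xist cells held 0.0969 member UMIs per cell in the control pool and 0.356 in the library labelled knockout, whereas Y-linked cells held 0.257 and 0.116. The GBP made up the latter difference, with 0.197 and 0.0347 UMIs per cell, while the IRG stood at 0.0601 and 0.0809. In the library labelled knockout the Y-linked value rests on 20 member UMIs in 173 cells. Y-linked macrophages of this bin held 0.285 member UMIs per cell (0.229 to 0.351) and 0.069 (0.0331 to 0.127). Y-linked monocytes did not show this fall, at 0.249 and 0.417, the latter from 10 UMIs in 24 cells, with intervals that overlap.

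**Figure D5:**
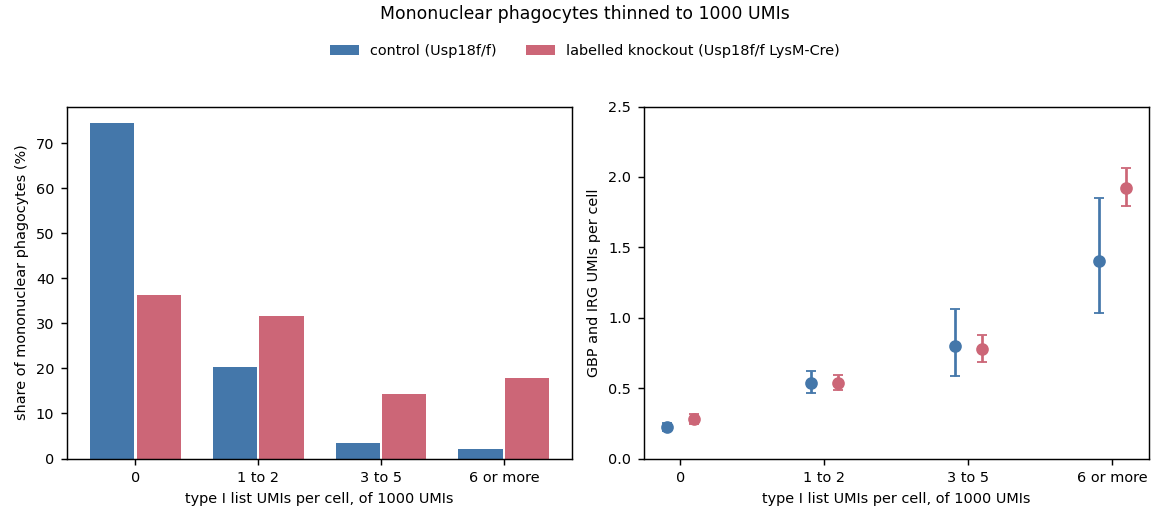
Mononuclear phagocytes thinned to 1000 UMIs, binned by their type I list UMIs, in the control pool (blue) and the library labelled knockout (red). The left axis gives the share of cells in each bin, and the right axis the GBP and IRG UMIs per cell with exact Poisson 95% intervals, which run from 0.224 to 1.40 in the control pool and from 0.281 to 1.93 in the other.

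The rest of the 2 families had a lower median. Of 17 further GBP and IRG genes in the feature table, 14 were tested in mononuclear phagocytes, with a median log2 ratio of 0.26, and 13 were above 0. Ifi47 (also called Irg47) and Gm4951 were called, at 48.3 and 107 CPM and at 3.92 and 19.1 CPM. Gbp9 stood at 20.3 and 34.4 CPM, Gbp8 at 11.7 and 13.4 CPM, and Gbp2b (formerly Gbp1) at 3.21 and 1.46 CPM, the lowest ratio. The divergent members Irgq (6.13 and 6.16 CPM) and Irgc1 (1.50 and 1.65 CPM) stood at nearly equal levels. In NK cells Gbp8 stood at 82.9 and 32.9 CPM, beside the lower Gbp7.

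Genes whose proteins load or act with GBP and IRG were largely flat. Of 13 such genes, 0 were called in mononuclear phagocytes, where only 0.932% of all genes tested were called higher and 0.102% lower. The ATG8-family loading machinery that places these GTPases on membranes, Atg3, Atg5, Atg7, Atg12 and Atg16l1, ran from a log2 ratio of -0.28 (Atg7) to 0.12 (Atg3), and Gabarapl2, needed for correct placement of IRG, stood at 0.09. The inflammatory caspase Casp4, which senses bacterial lipopolysaccharide exposed by GBP, was highest at 28.4 and 53.5 CPM (log2 ratio 0.81), and in monocytes it stood at 44.4 and 101 CPM. Casp1 stood at 36.7 and 51.4 CPM, while Gsdmd, the pore protein both caspases cut, and the DNA sensor Aim2 stood at log2 ratios of 0.09 and -0.02.

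Across 9 classes in 2 libraries, 18 points, the members were unequally alike. Gbp3 followed the mean of the other 8 most closely (r = 0.85 on log2 of CPM + 5), then Igtp (0.82) and Irgm2 (0.75), while Iigp1 (0.49) and Irgm1 (0.46) did so least. Of 11060 other genes ranked by the same measure against the mean of the 9, the 10 most alike were Parp14 (0.90), Ifi47 (0.90), Casp1 (0.89), 2810474O19Rik (0.89), Ms4a6b (0.88), Mbd2 (0.88), Arl4c (0.88), Slc9a3r1 (0.87), Cmip (0.87) and Fam26f (0.87). The 18 points share 2 libraries and their free RNA, so the values are a description.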

How the data were processed

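The files hold raw counts of UMIs per gene and barcode for 2 libraries, deposited by the authors without normalization. They were made with Cell Ranger 3.0.1 on mm10, per the submitters' processing notes. Gene symbols and identifiers came from the same deposited tables. The analysis used scipy 1.17.1, scanpy 1.11.5 and leidenalg 0.10.2 under Python 3.11.15. A barcode needed at least 200 genes and no more than 10% mitochondrial UMIs (500 UMIs was the lowest total). Doublets were scored by Scrublet in each library, and 481 and 294 barcodes, those scoring highest, were dropped on the basis of 0.8% for every 1000 barcodes.

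With 1 library per group there was no replicate and no test. A cell took the class with the most detected markers out of 8, given at least 3 and a lead of 1. Of the mononuclear phagocytes, 11.1% and 10.0% stood at that limit, as did 39.9% of control cDC2. Neutrophils (447 and 27 cells) were not compared, since 50 cells per library were required. UMIs were summed per library and class as CPM. Folds are CPM ratios with exact conditional binomial 95% intervals, levels have exact Poisson and shares exact Clopper-Pearson intervals, and the difference of 2 shares a Wald interval. Log2 ratios use CPM + 5, only for genes with 20 or more UMIs summed over the libraries, and a call is a log2 ratio of at least 1 either way. Xist cells hold Xist and no Y-linked UMI, and Y-linked cells the reverse, so undetected transcripts leave cells out of both. The calculation was tested on simulated data.

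Named genes are the members, the genes of the lists and the 10 most alike in profile. Members and lists were chosen with earlier results of these data known. Of 96 list genes, Gbp11, Gm12250 and Mx2 had no matching symbol. Alternatives changed the scaling, pseudocount, filters, gate, clustering, thinning, doublets, free RNA and sex split. One more, leaving out cells with markers of another lineage, was added after seeing the data.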

Additional observations from a re-analysis of the deposited data

Results flagged for a closer look

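The difference between Xist and Y-linked cells stood out because the libraries differed in opposite directions in the 2 kinds of cell, with intervals that excluded no change on each side. The size of that difference, the log2 ratio in Xist cells less that in Y-linked cells, is a comparison of 1 pool with 1 pool and was not tested. In mononuclear phagocytes it was 2.20 for the sum of all 9 members and 2.68 for the 5 GBP. By member it was 2.99 for Gbp2, 1.76 for Gbp3, 2.60 for Gbp4 and 2.30 for Gbp7. In macrophages it was 2.28 for the sum, 2.80 for the GBP, 3.46 for Gbp2, 1.55 for Gbp3, 2.59 for Gbp4, 1.77 for Gbp5 and 2.25 for Gbp7. In control Xist macrophages 1 cell held 32.5% of the 40 Gbp2 UMIs and 1 held 73.3% of the 15 Gbp4 UMIs. Among monocytes Gbp2 met the same condition, at 1.90. No IRG did so in these 3 classes.

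Cells outside the comparisons held member transcripts too. Barcodes assigned to no class (578 and 596) stood at 443 and 636 CPM of summed members, 1.44-fold higher (1.31 to 1.58) in the library labelled knockout. Neutrophils stood at 142 and 271 CPM, 1.91-fold higher (1.00 to 3.40), with 81 UMIs in the control pool and 14 in the other.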

How the results depend on the processing

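No paired analysis was possible because each group is 1 library. For the same reason no replicate could be left out. The log2 ratio of the summed members in mononuclear phagocytes (0.79) went to 0.90 with cluster classes, 0.85 at 5% mitochondrial UMIs, 0.84 without doublet removal, 1.01 with the mean of per-cell CPM, 1.12 in thinned cells, 0.97 without Gbp2, 1.71 in Xist cells and -0.48 in Y-linked cells. The type I median less the member median (1.55) went to 1.55 with median-of-ratios scaling, 1.77 with a pseudocount of 1 CPM, 1.54 with a lead of 2 markers, 1.61 with cluster classes, 1.57 at 5% mitochondrial UMIs, 1.51 without doublet removal, 1.44 with per-cell means, 1.54 after free RNA was subtracted, 1.59 without cells of other-lineage markers, 1.15 in thinned cells, 0.67 in Xist cells and 1.40 in Y-linked cells. The difference in the share with at least 3 member UMIs (5.20 points) went to 8.75 in Xist cells, -1.98 in Y-linked cells, 21.4 without thinning, 9.88 at 2000 UMIs and 16.4 for at least 1 UMI. In Y-linked cells the sum in macrophages (-0.61) also turned. Igtp in mononuclear phagocytes (-0.11) and Gbp4 in monocytes (-0.92) had the other sign there. Their ratio intervals included 1 (0.698 to 1.18 and 0.0391 to 1.35), and this Gbp4 value rests on 2 UMIs in the library labelled knockout. Of 1359 alternatives for single members, 1225 moved by less than the counting interval and 88 had the other sign, 17 of them in Y-linked cells, and 2 of the 88 belonged to members called at least 2-fold. Of 135 for sums in other classes, 105 moved by less and 1 had the other sign. Classes with under 50 cells in a library under an alternative, such as Y-linked migratory DC, are not among these. The cause was not tested. Depth limits classes with under 50 member UMIs, such as the IRG of control migratory DC (40 UMIs).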
